A study of Homo sapiens with 17 samples.

Results

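The nuclear-encoded subunits of oxidative phosphorylation were taken as all protein-coding genes whose symbol begins with NDUFA, NDUFB, NDUFC, NDUFS or NDUFV, with UQCR, with COX4 to COX8, or with ATP5, leaving out the NDUFAF assembly factors. This rule found 79 of the 18869 genes measured, and used no measured value. Of the 79 subunits, 75 had an average TPM, a relative RNA level, of at least 5 in both immunoprecipitations (IPs) described below, as did 9607 protein-coding genes (PCGs) in all. The 4 subunits outside this filter were COX6B2, NDUFA4L2 and UQCRHL, with a TPM under 5, and the readthrough gene ATP5MF-PTCD1, which had no TPM.

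The values come from Ribo-STAMP in HEK293T, an established human embryonic kidney line. RPS2-STAMP cells carried a lentivirally integrated, doxycycline-inducible fusion of the C-to-U editing enzyme APOBEC1 to the small ribosomal subunit protein RPS2, and Control-STAMP cells carried APOBEC1 alone. Both were induced with 50 ng/ml doxycycline for 24 h and crosslinked with 0.1% formaldehyde. RNA was sequenced from the Input (3 RPS2-STAMP and 3 Control-STAMP samples), from the IP of PABPN, the nuclear poly(A)-binding protein (3 and 3), and from the IP of PABPC, the cytoplasmic poly(A)-binding protein (3 and 2). The study describes the Input and the material for the IPs as cytoplasmic, although the sample labels state no fractionation. For each gene there is 1 normalized EPKM in each of these fractions, an edit rate scaled by gene length and library size from which the control editing was subtracted, and 1 average TPM. Replicates were pooled in these values and no read or edit counts were given, so no SD or test accompanies any value, the depth behind each value is not given, and differences between fractions have no replicate check. A gene with a normalized EPKM of 0 is called listed at 0, since editing at or below the control cannot be told apart from no editing.

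Of the 7 markers listed for HEK293T, all were measured, with a summed TPM of 262 in Input RNA, 376 after PABPC IP and 261 after PABPN IP, most of it from VIM. Input TPM was 184 for VIM, 26.9 for NEFL, 24.8 for KRT18, 14.8 for CDH2, 9.0 for NEFM, 2.16 for KRT8 and 0.797 for PAX2. KRT8 and PAX2 were thus about as low as the liver gene APOA1 at 0.402 and the muscle gene ACTA1 at 2.14, markers of other cell types, and the other 8 of the 10 on that list are not given here. The nuclear RNA MALAT1 had a TPM of 208 after PABPN IP, 55.0 in Input RNA and 10.3 after PABPC IP. NEAT1, another nuclear RNA, followed the same order between the IPs, at 55.8 after PABPN IP and 3.25 after PABPC IP.

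Oxidative phosphorylation makes most of the ATP of respiring cells. Complex I takes electrons from NADH, complex III passes them from ubiquinol to cytochrome c, complex IV hands them to oxygen, and the proton gradient that these complexes build drives ATP synthesis by complex V. A few catalytic subunits are encoded in mitochondrial DNA and made by mitochondrial ribosomes, which lack RPS2, whereas the subunits described here are encoded in the nucleus, translated on cytosolic ribosomes and imported.

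The mRNAs of these subunits were short. In GENCODE release 44, in which all 75 were found, the reference transcripts had a median length of 744 bases, against 3270 for the 9601 PCGs found of 9607. The median coding sequence was 390 bases against 1323, the median 5′ UTR was 56 bases against 134, and the median 3′ UTR was 192 bases against 1349. The share of C, the base that APOBEC1 edits, was similar at 22.8% and 23.7%. Several subunits also shared the letters around the start codon. The coding sequence began with ATGGCGGC in 11 of the 75 subunits (14.7%) and in 452 of the 9601 PCGs (4.71%), and the same letters preceded by AAG were present in 4 subunits (5.33%) and 149 PCGs (1.55%). These letters are the core of TISU, an element known to direct initiation on mRNAs with very short 5′ UTRs. Of the 4 subunits with the longer match, 3 are shown 5′ to 3′ as the last 10 bases before the start codon and the first 20 coding bases, with ATGGCGGC in capitals. NDUFA9 lies at chr12:4649095-4694317 on the plus strand of hg38, NDUFS4 at chr5:53560633-53683338 on the plus strand and UQCRC1 at chr3:48599002-48610976 on the minus strand, and their 5′ UTRs had 13, 24 and 26 bases.
NDUFA9: gtgggaaaagATGGCGGCtgccgcacaatc
NDUFS4: ctgcagcaagATGGCGGCggtgtcaatgtc
UQCRC1: cagctggaagATGGCGGCgtccgtggtctg
The 11 subunits with ATGGCGGC had 5′ UTRs of 11 to 47 bases. Their median EPKM was 0.124 in Input RNA, 0.110 after PABPC IP and 0.0358 after PABPN IP. The Input was highest for 5 of these 11, against 54 of all 75 subunits, and the order of the medians held gene by gene for 3 of 11, against 37 of 75. Matching letters do not show how these mRNAs are translated.

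Editing of the subunits was highest in Input RNA, whereas that of PCGs as a whole was highest after PABPC IP. Over the 75 subunits the median EPKM was 0.165 in Input RNA, 0.110 after PABPC IP and 0.0611 after PABPN IP. Over all 9607 PCGs the same medians were 0.0273, 0.0501 and 0.0334. The Input held the highest of the 3 values for 54 of 75 subunits (72%), against 26.6% of PCGs. The PABPC IP was highest for 12 subunits, against 42.6% of PCGs, and the PABPN IP for 9, against 28.7%. The full order, with the Input above the PABPC IP and the PABPC IP above the PABPN IP, was present for 37 subunits (49.3%) and for 13.8% of PCGs. Most subunits, like most PCGs, had an EPKM above 0 in each fraction. The numbers were 69 subunits in Input RNA (92.0%, against 78.1% of PCGs), 68 after PABPC IP (90.7%, against 82.6%) and 58 after PABPN IP (77.3%, against 72.9%). In all 3 fractions 49 subunits (65.3%) were above 0, against 50.5% of PCGs. Being listed at 0 in every fraction applied to 0 of the 75 subunits and to 199 of the 9607 PCGs.

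**Figure D1:**
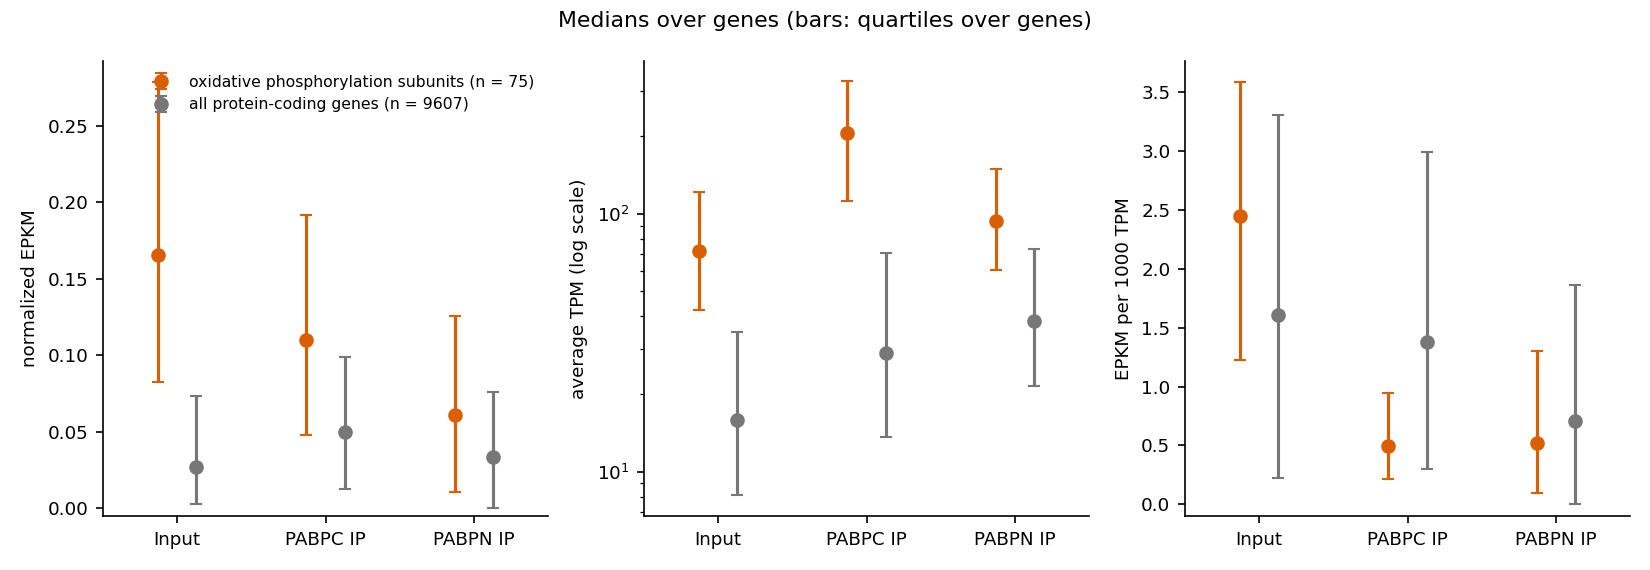
Medians over the 75 oxidative phosphorylation subunits (orange) and the 9607 PCGs (grey) in Input RNA, PABPC IP and PABPN IP, with bars from the lower to the upper quartile over genes. From left to right the axes are normalized EPKM, average TPM (log scale) and EPKM per 1000 TPM, and the subunits have their highest EPKM in Input RNA (median 0.165) and their highest TPM after PABPC IP (median 205).

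The RNA of the same genes was distributed differently. Median TPM of the subunits was 71.4 in Input RNA, 205 after PABPC IP and 93.7 after PABPN IP, against 15.8, 28.9 and 38.4 for PCGs. TPM was highest after PABPC IP for 71 of 75 subunits and for 42.1% of PCGs. The exceptions were NDUFA10, NDUFS1, NDUFV1 and NDUFV3, all of complex I, which had their highest TPM after PABPN IP. In sum the 79 subunits made up 0.914% of the TPM of the Input, 2.19% of that of the PABPC IP and 0.996% of that of the PABPN IP. Their share of summed EPKM ran the other way between the Input and the PABPC IP, at 2.23% in Input RNA, 1.13% after PABPC IP and 0.758% after PABPN IP.

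Log2 ratios of TPM + 0.5 were centred on their median over PCGs, which before centring was 0.95 for the PABPC IP over the Input, 1.10 for the PABPN IP over the Input and -0.19 for the PABPC IP over the PABPN IP. Relative to PCGs, the subunits were higher after PABPC IP, with a median centred ratio to the Input of 0.54. Below 800 bases this median was 0.63 for the 41 subunits and 0.54 for the 307 other PCGs, and in each longer class it was also higher for the subunits. The centred ratio to the Input exceeded 0.5 for 42 of 75 subunits, against 9.02% of PCGs, and was below -0.5 for 1 subunit, NDUFS1, against 17.4%. For the PABPN IP over the Input the median was -0.77 with centring and 0.33 without it, so that the direction turned with the scaling. The centred ratio was below -0.5 for 52 subunits (69.3%), against 20.6% of PCGs, and above 0.5 for no subunit, against 23.7%. Citric acid cycle genes had a similar share, with 9 of 13 (69.2%) below -0.5 and 0 above 0.5. Between the IPs the median was 1.32 with centring and 1.14 without. The PABPC IP exceeded the PABPN IP by more than 0.5 after centring for 68 subunits, against 29.9% of PCGs, and the reverse held for 2, NDUFS1 and NDUFA10, against 31.1%.

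**Figure D2:**
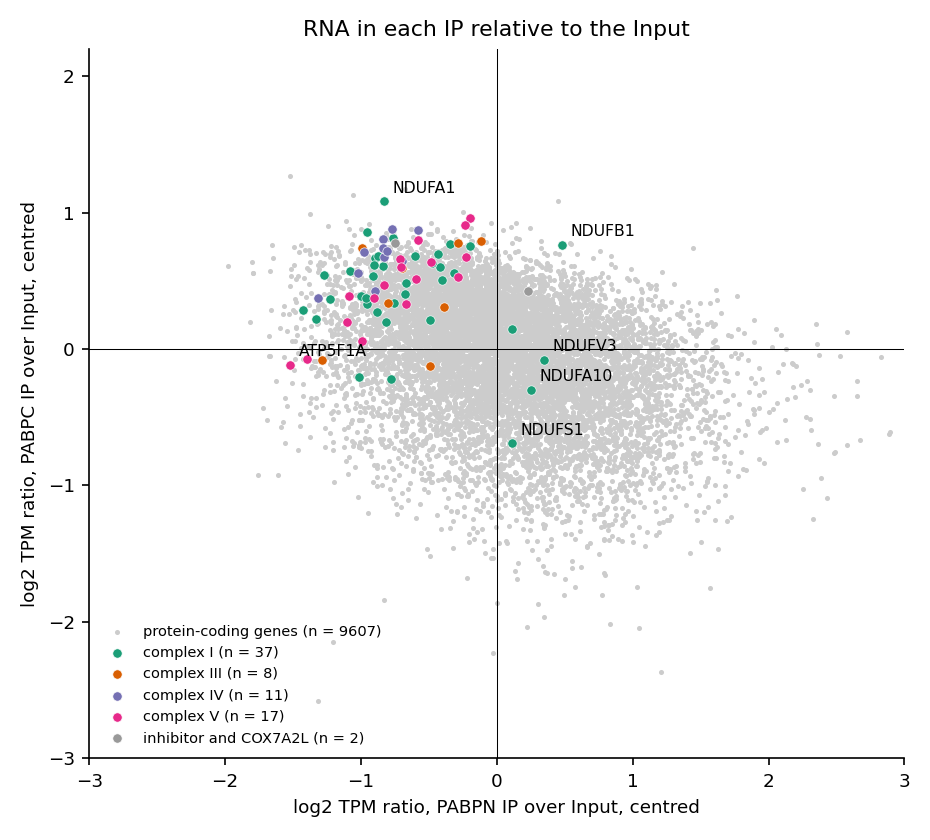
Log2 TPM ratio of the PABPN IP to the Input (x axis) and of the PABPC IP to the Input (y axis), each centred on its median over PCGs, for 9607 PCGs (grey, with 40 outside the axes) and 75 subunits coloured by complex, both axes sharing the Input values. Most subunits lie to the upper left, with a median of -0.77 on the x axis (0.33 without centring) and 0.54 on the y axis.

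EPKM rose with TPM across genes, and it was therefore also divided by TPM. The subunits had a median of 2.45 EPKM per 1000 TPM in Input RNA, 0.499 after PABPC IP and 0.524 after PABPN IP, against 1.61, 1.38 and 0.704 for PCGs. For the 65 subunits above 0 in both fractions, the ratio of EPKM per TPM after PABPC IP to that in Input RNA had a median of 0.209 and was below 1 for 62 (95.4%), against a median of 0.727 and 60.8% below 1 over PCGs. For the 51 subunits above 0 in both IPs, the PABPC IP to PABPN IP ratio had a median of 0.610, with 37 below 1 (72.5%). Over the 5914 PCGs above 0 in both IPs this median was 1.44, with 37.4% below 1. The order of the IPs for the subunits thus depended on the quantity, with the PABPC IP higher in median EPKM and lower in median EPKM per TPM. Both averages are pooled and the samples behind each average TPM are not stated, so this ratio does not measure edits per molecule.

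Editing in the IPs was then compared directly, the comparison for which both IPs were made. On the log2(EPKM + 0.01) scale, which understates the change of low genes, 34 of 75 subunits (45.3%) were at least 2-fold higher after PABPC IP than after PABPN IP, against 36.3% of PCGs, and 11 (14.7%) were at least 2-fold lower, against 21.1%. Of the 34 higher subunits 17 were listed at 0 after PABPN IP, and of the 11 lower subunits 7 were listed at 0 after PABPC IP. With a pseudocount of 0.1 the numbers were 14 of 75 subunits, against 865 of 9607 PCGs (9%), and 3 of 75, against 356 of 9607 (3.71%). The median difference was 0.40 for the subunits and 0.32 for PCGs, and for the subunits it was 0.22 with the larger pseudocount. In EPKM, the median difference of the subunits between the IPs was thus close to that of PCGs as a whole. Against the Input the subunits stood apart from PCGs as a whole. In the PABPN IP they did not stand apart from cytosolic ribosomal protein genes, of which 54 of 82 (65.9%) were at least 2-fold lower than in Input RNA. In the PABPC IP 30 subunits (40.0%) were at least 2-fold lower than in Input RNA, against 19.5% of PCGs, and 6 were at least 2-fold higher, against 35.1%. Mitochondrial import genes had the same share at least 2-fold lower there, 10 of 25 (40%). Among assembly factors it was 14 of 45 (31.1%), so this fall was not particular to the subunits. In the PABPN IP 47 subunits (62.7%) were at least 2-fold lower than in Input RNA, against 29.6% of PCGs, and 8 were at least 2-fold higher, against 28.4%. The median log2 differences from the Input were -0.67 for the PABPC IP and -1.42 for the PABPN IP, against 0.30 and 0.00 for PCGs, and with a pseudocount of 0.1 they were -0.39 and -0.76 for the subunits. Both sets of differences use the same Input values.

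**Figure D3:**
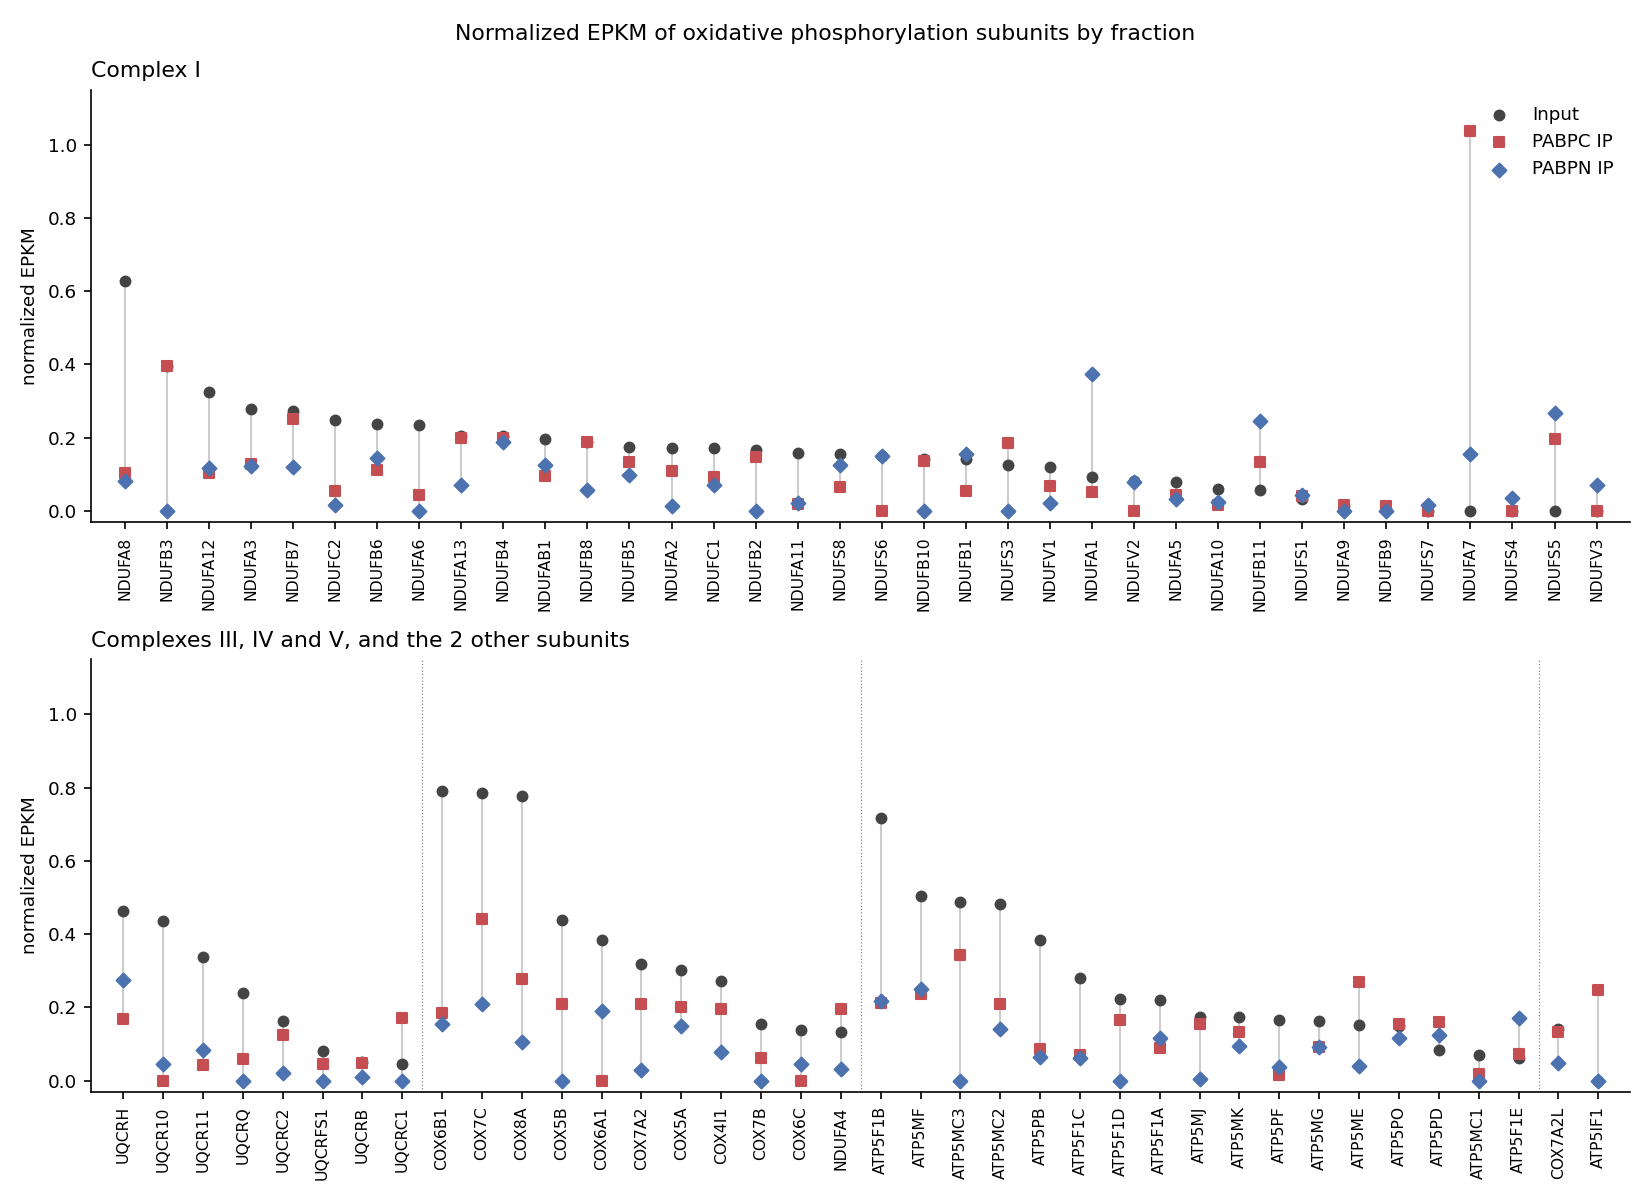
Normalized EPKM (y axis) of 74 of the 75 subunits in Input RNA (circles), PABPC IP (squares) and PABPN IP (diamonds), with complex I above and complexes III, IV and V below, separated by dotted lines and followed by COX7A2L and ATP5IF1, where each symbol is 1 pooled value and grey lines join the lowest and highest. NDUFA7 (1.04 after PABPC IP) and NDUFA1 (0.373 after PABPN IP) depart from the usual order, in which the Input is highest.

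Complex I was represented by its 7 core and 30 supernumerary subunits encoded in the nucleus. The core subunits include those that bind the flavin, the iron-sulfur clusters or ubiquinone. Their median Input EPKM was 0.0819, against 0.168 for the supernumerary subunits. Median Input TPM was lower too, at 46.9 against 62.2. Per 1000 TPM the Input medians were 1.67 and 2.60 EPKM, with overlapping quartiles (0.972 to 2.21 and 0.962 to 5.22). NDUFV1, the flavin-binding subunit that oxidizes NADH, had an EPKM of 0.119 in Input RNA, 0.0670 after PABPC IP and 0.0216 after PABPN IP. Its partner NDUFV2 had values of 0.0819, 0 and 0.0782 in the same order. NDUFS1, the largest subunit and carrier of several iron-sulfur clusters, had nearly level values of 0.0326, 0.0402 and 0.0421. It also had the longest reference transcript of the 75, at 11660 bases, and the lowest centred TPM ratio of the PABPC IP to the PABPN IP, -0.76. NDUFS3, which helps to join the arms of the complex, was edited most after PABPC IP, with 0.124 in Input RNA, 0.186 after PABPC IP and 0 after PABPN IP. NDUFS8, which carries iron-sulfur clusters, had 0.156, 0.0639 and 0.126, and NDUFS7, which holds the last cluster of the chain, was listed at 0 in Input RNA and PABPC IP and had 0.0152 after PABPN IP. The Input was therefore highest for 3 of the 7 core subunits, compared with 20 of the 30 supernumerary subunits.

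The largest rise and the largest fall in EPKM between the IPs were those of supernumerary subunits of complex I. NDUFA7 (ENSG00000267855, chr19:8308768-8321375, minus strand) was listed at 0 in Input RNA and had an EPKM of 1.04 after PABPC IP and 0.155 after PABPN IP, with a TPM of 110, 365 and 187, above the upper quartile of the subunits in both IPs. Its whole span of 12608 bases is overlapped on the same strand by the protein-coding gene ENSG00000167774, which had an EPKM of 0.0763 after PABPC IP and was listed at 0 in the other fractions. Which edits were counted for which of these genes is not stated, so the value of NDUFA7 cannot be assigned to it with certainty. The same limit applies to the 19 subunits in all that overlap another protein-coding or long noncoding gene on the same strand, 14 of them over at least 90% of their span, among which are COX8A, COX6A1, ATP5PO, NDUFA9 and NDUFV2. NDUFB3 rose from a listed 0 after PABPN IP to 0.395 after PABPC IP, and its Input value was 0.394. In the other direction, NDUFA1, a small membrane subunit, had 0.373 after PABPN IP, 0.0523 after PABPC IP and 0.0918 in Input RNA. Its TPM did not follow, since NDUFA1 had the highest centred TPM ratio of the PABPC IP to the PABPN IP among the subunits, 1.95. NDUFS6, which binds zinc, had 0.150 after PABPN IP and in Input RNA and was listed at 0 after PABPC IP, and NDUFB11 had 0.246 after PABPN IP, 0.132 after PABPC IP and 0.0575 in Input RNA. NDUFS5 reached 0.267 after PABPN IP and 0.195 after PABPC IP and was listed at 0 in Input RNA. The PABPN IP was highest for 9 subunits in all, of which 8 belonged to complex I and the other was ATP5F1E. The highest Input value of complex I was that of NDUFA8, at 0.627, with 0.104 after PABPC IP and 0.0802 after PABPN IP.

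Complex III subunits were edited mainly in Input RNA. Of the 8 subunits that the rule found, 7 had their highest EPKM there, and the medians were 0.202 in Input RNA, 0.0546 after PABPC IP and 0.0151 after PABPN IP. The exception was UQCRC1, a core protein of the complex, with 0.0470 in Input RNA, 0.172 after PABPC IP and 0 after PABPN IP. UQCRC2, the other core protein, had 0.163, 0.125 and 0.0209. The Rieske iron-sulfur protein UQCRFS1 had 0.0805, 0.0470 and 0, and the table also lists its processed pseudogene UQCRFS1P1. Among the small subunits, UQCR10 had 0.435 in Input RNA and 0.0445 after PABPN IP and was listed at 0 after PABPC IP, although its PABPC IP TPM of 1096 was among the 3 highest of the subunits. UQCRH, the hinge protein, which assists the contact of cytochrome c1 with cytochrome c, kept a high value after PABPN IP, with 0.464 in Input RNA, 0.170 after PABPC IP and 0.274 after PABPN IP.

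Complex IV held the 3 highest Input values of all the subunits. COX6B1, which faces the intermembrane space, had an EPKM of 0.790 in Input RNA, 0.185 after PABPC IP and 0.155 after PABPN IP. COX7C had 0.786, 0.442 and 0.211, and COX8A had 0.778, 0.278 and 0.105. COX8A was also the most abundant subunit by TPM in each fraction, with 787 in Input RNA, 2552 after PABPC IP and 948 after PABPN IP. COX4I1, the largest nuclear-encoded subunit of the complex and the site of its regulation by ATP, had 0.271, 0.195 and 0.0787. The Input was highest for 10 of the 11 subunits, and the exception was NDUFA4, a subunit named for complex I and now placed in complex IV, with 0.134 in Input RNA, 0.197 after PABPC IP and 0.0328 after PABPN IP. COX6A1 was close to 0 after PABPC IP at 0.000319, with 0.385 in Input RNA and 0.191 after PABPN IP, and COX5B was listed at 0 after PABPN IP, with 0.440 and 0.208 in Input RNA and PABPC IP. For COX6A1, COX5B and COX7C the table likewise lists processed pseudogenes. The TPM ratio of the PABPC IP to the PABPN IP was more uniform than editing, and exceeded 0.5 after centring for all 11 subunits, with a median of 1.61.

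In complex V, the F1 head carries out catalysis and the membrane part conducts protons. The catalytic beta subunit ATP5F1B had an EPKM of 0.716 in Input RNA, 0.212 after PABPC IP and 0.219 after PABPN IP, so that the IPs were nearly equal. The alpha subunit ATP5F1A, its partner in the ring of the head, had 0.221, 0.0899 and 0.118. ATP5F1C, the gamma subunit that turns within this ring, had 0.279, 0.0696 and 0.0611. ATP5F1D, the delta subunit, had 0.222 and 0.166 in Input RNA and PABPC IP and was listed at 0 after PABPN IP. ATP5F1E, the epsilon subunit, was the F1 subunit with its highest value after PABPN IP, with 0.0635, 0.0741 and 0.171. In the peripheral stalk and membrane part, the Input was highest for 6 of 9 subunits, and the PABPC IP was highest for ATP5ME, ATP5PD and ATP5PO. ATP5ME, which stabilizes dimers of the complex, had 0.151 in Input RNA, 0.271 after PABPC IP and 0.0403 after PABPN IP. All 17 subunits of complex V had a centred TPM ratio of the PABPC IP to the PABPN IP above 0.5.

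The c-ring of complex V is assembled from a protein that 3 genes encode with different import presequences. Translated from the reference transcripts, the last 77 codons of ATP5MC1 (hg38 chr17:48892765-48895871, plus strand), ATP5MC2 (chr12:53632726-53677408, minus strand) and ATP5MC3 (chr2:175176258-175181710, minus strand) gave the same residues. With the stop codon this stretch had 234 bases, of which ATP5MC1 and ATP5MC2 differed at 27 (88.5% identical) and ATP5MC3 differed from each at 47 (79.9% identical). It held 63 C in ATP5MC1, 60 in ATP5MC2 and 44 in ATP5MC3, while the whole reference transcripts held 168, 191 and 463. To show where genes for the same residues differ, the last 20 codons with the stop codon are given 5′ to 3′ on the coding strand, with capitals at the 19 positions where the genes are not all alike.
ATP5MC1: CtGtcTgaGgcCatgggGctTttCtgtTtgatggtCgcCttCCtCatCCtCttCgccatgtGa
ATP5MC2: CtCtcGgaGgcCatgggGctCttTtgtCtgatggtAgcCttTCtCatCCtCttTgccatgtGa
ATP5MC3: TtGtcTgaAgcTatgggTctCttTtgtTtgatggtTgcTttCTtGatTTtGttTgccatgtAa
In the Input the EPKM was 0.0714 for ATP5MC1, 0.481 for ATP5MC2 and 0.487 for ATP5MC3. In the PABPC IP the values were 0.0176, 0.210 and 0.342. In the PABPN IP ATP5MC2 had 0.141, while ATP5MC1 and ATP5MC3 were listed at 0. Input TPM was 90.5, 158 and 81.5, so that ATP5MC1 and ATP5MC3 had similar RNA levels and different EPKM. All 3 genes had their highest EPKM in Input RNA. A processed pseudogene of ATP5MC1, ATP5MC1P2, was also listed, with an Input EPKM of 0.0877. How edits were divided between ATP5MC1 and this pseudogene is not stated.

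Outside the complexes, the rule took in ATP5IF1, the inhibitor that blocks ATP hydrolysis by complex V, and COX7A2L, which joins complexes III and IV into supercomplexes. ATP5IF1 had an EPKM of 0.248 after PABPC IP and was listed at 0 in Input RNA and the PABPN IP, 1 of the 5 largest rises between the IPs. COX7A2L had 0.142 in Input RNA, 0.134 after PABPC IP and 0.0489 after PABPN IP. The tissue isoforms and the duplicate were low. COX6B2, the testis isoform of COX6B1, had an Input TPM of 0.189, NDUFA4L2, a hypoxia-induced relative of NDUFA4, had 0.286, and UQCRHL, a copy of UQCRH, had 0.229.

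Other lists of mitochondrial genes were set beside the subunits. The Input was highest in EPKM for 3 of the 4 complex II genes, with medians of 0.137 in Input RNA, 0.0982 after PABPC IP and 0.0730 after PABPN IP. The exception, named after its values were seen, was SDHA, the flavoprotein, with 0.0243, 0.0620 and 0.0549. Cytochrome c1 (CYC1), a catalytic subunit of complex III that the symbol rule did not reach, and cytochrome c (CYCS), which carries electrons from complex III to complex IV, were both highest in Input RNA, at 0.231 and 0.419. Of 25 import genes the Input was highest for 14, with a median of 0.121 in Input RNA and 0.0922 after PABPC IP. For the 45 assembly factors that passed the filter, of 47 listed, the number was 19, and the medians in Input RNA and PABPC IP were 0.0406 and 0.0381. The 13 citric acid cycle genes were highest in Input RNA in 5 cases, with medians of 0.0824 and 0.0883. Mitochondrial ribosomal protein genes had nearly equal medians of 0.0606 and 0.0604, and the Input was highest for 22 of 77. Cytosolic ribosomal protein genes, which had a median Input TPM of 493, had medians of 0.438 and 0.425, and the Input was highest for 47 of 82. Their median after PABPN IP was 0.144. The median log2 EPKM difference of the PABPN IP from the Input was -1.29 for these genes, beside -1.42 for the 75 subunits. The 13 subunits encoded in mitochondrial DNA had a median TPM of 1768 in Input RNA and a median EPKM of 0.00390, with medians of 0 in both IPs, and the Input was highest for 6. After PABPN IP 4 of the 13 were above 0, and the highest EPKM there was 0.816. The median centred TPM ratio of the PABPC IP to the PABPN IP was above 0 for the nuclear-encoded lists, at 1.90 for cytosolic ribosomal proteins, 1.22 for CYC1 and CYCS, 1.13 for complex II, 0.87 for mitochondrial ribosomal proteins, 0.84 for import, 0.70 for the citric acid cycle and 0.39 for assembly factors, beside 1.32 for the 75 subunits. For the mitochondrially encoded subunits it was below -0.5 for all 13, with a median of -2.16 and, without centring, of -2.35. The median centred TPM ratio of the PABPN IP to the Input was -0.77 for the 75 subunits. It was lower for cytosolic ribosomal proteins (-1.16) and complex II (-0.89). CYC1 and CYCS and the citric acid cycle both had -0.72. Mitochondrial ribosomal proteins had -0.50, import -0.46, assembly factors -0.04 and the mitochondrially encoded subunits 0.37.

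**Figure D4:**
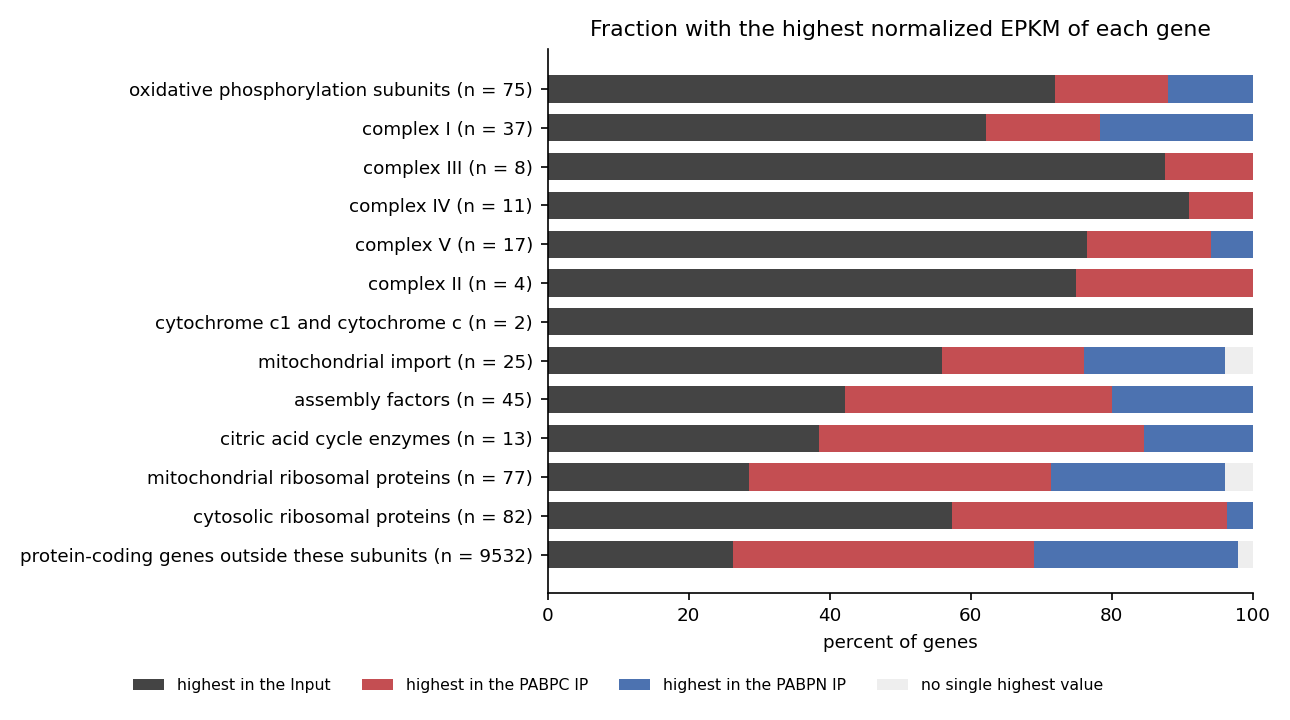
Percent of genes (x axis) with their highest normalized EPKM in Input RNA, PABPC IP or PABPN IP, or with no single highest value, for the 75 subunits, each complex, other gene lists and the remaining PCGs. The Input is highest for 54 of the 75 subunits, 22 of 77 mitochondrial ribosomal protein genes and 26.2% of the 9532 PCGs outside the subunits.

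RNA level and transcript length were set beside these values. Across the 75 subunits, Spearman's rank correlation between EPKM and TPM was 0.61 in Input RNA, 0.46 after PABPC IP and 0.28 after PABPN IP, and across the 9607 PCGs it was 0.53, 0.45 and 0.25. Genes share libraries and are not independent replicates. Among PCGs outside the subunits, the order of the fractions also changed with RNA level. The 5565 genes with an Input TPM under 20 had a median EPKM of 0.0148 in Input RNA and 0.0332 after PABPC IP, and the 312 genes with an Input TPM of 200 or more had 0.294 and 0.165. The subunits did not show this change, and their Input median was above that of the PABPC IP in each of the 5 classes of Input TPM. Under a TPM of 20, the 8 subunits had 0.0423 and 0.0282. At 20 to 50, the 17 subunits had 0.142 and 0.0741, and the 2418 other PCGs had 0.0518 and 0.0772. At an Input TPM of 50 to 100, the 22 subunits had medians of 0.163 and 0.102 in Input RNA and the PABPC IP, and the 882 other PCGs had 0.106 and 0.111. At 100 to 200, the 22 subunits had 0.259 and 0.160, and the 355 other PCGs had 0.164 and 0.120. The Input was thus above the PABPC IP for other abundant PCGs as well. By transcript length, the Input was highest for 28 of the 41 subunits under 800 bases (68.3%) and for 43.0% of the 307 other PCGs of that length, and the other PCGs fell with each longer class to 19.7% of 2428 at 5000 bases or more. The subunits showed no steady fall, with 11 of 12 (91.7%) from 800 to under 1500 bases, 9 of 12 (75%) to under 3000, 3 of 4 to under 5000 and 3 of 6 (50%) above. The TPM ratios also moved with length, and the 307 other PCGs under 800 bases had a median centred log2 TPM ratio of 0.54 for the PABPC IP over the Input and 1.11 between the IPs, against 0.63 and 1.43 for the 41 subunits of that length. Short genes in general thus shared much of the TPM difference of the short subunits. In the 4 longer classes, from shorter to longer, the median centred ratio between the IPs was 0.85, 0.34, -0.12 and -0.75 for other PCGs. For the subunits it was 1.32, 1.32, 1.03 and 0.66. The parts of RNA level and length in the subunits' editing and TPM were not tested.

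**Figure D5:**
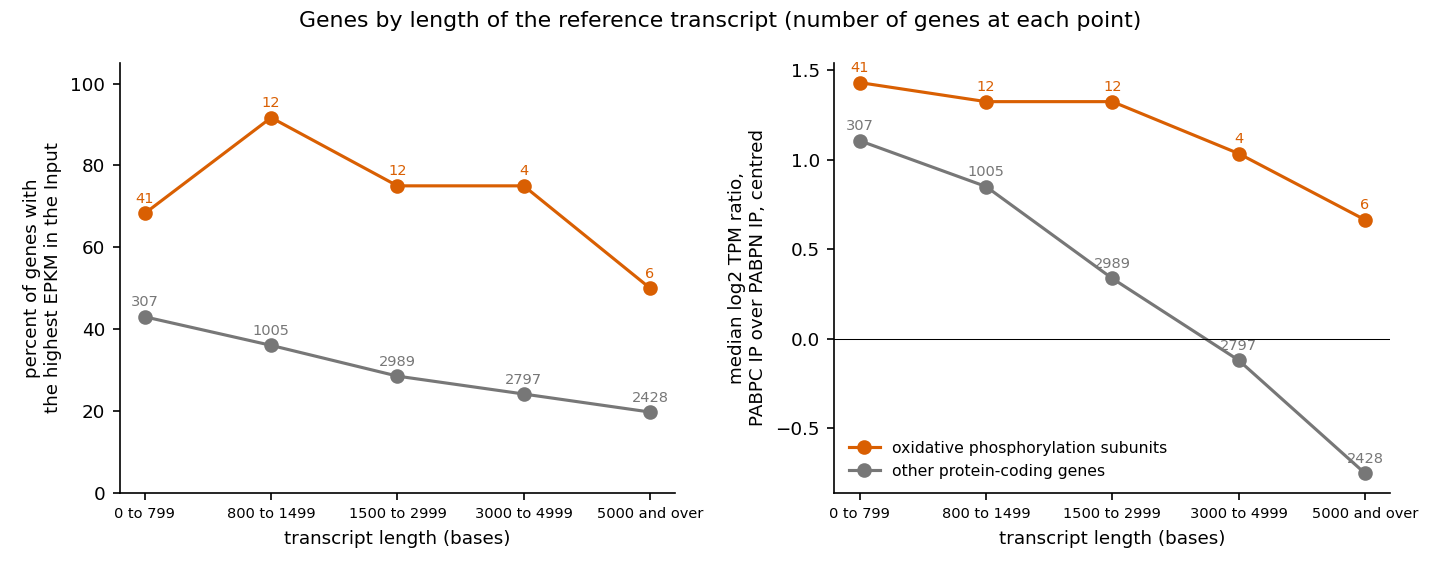
Percent of genes with their highest EPKM in Input RNA (left) and median log2 TPM ratio of the PABPC IP to the PABPN IP after centring (right) by length of the reference transcript in bases (x axis), for the subunits (orange) and other PCGs (grey), with the number of genes at each point. The other PCGs fall from 43.0% to 19.7% on the left, and the 41 shortest subunits stand at 68.3%.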

How the data were processed

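The deposited normalized EPKM is an editing signal that the authors made from reads aligned to hg38 with STAR, by scaling C-to-U edits by gene length and library size and subtracting the Control-STAMP EPKM. It is never below 0, and how its replicates were pooled is not stated. The deposited average TPM sums exonic and intronic regions, counted by the authors with featureCounts 2.0.2 on a GENCODE 34 annotation without overlapping regions, and was missing for 1964 genes. Which samples each average TPM covers is not stated.

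The files hold no counts and no depth per sample, and no statistical test was run. Subunits and PCGs were kept if neither IP gave them a TPM under 5. EPKM differences used log2(EPKM + 0.01), called at 2-fold. TPM ratios used a pseudocount of 0.5, were centred on the median of the 9607 PCGs and were called at 0.5 on the log2 scale. The intervals by which the closing section sorts the alternatives are 95% order-statistic intervals of medians over subunits. Genes named with values were core subunits of complex I, UQCRC1, UQCRC2, UQCRFS1, COX4I1, the F1 and c-ring subunits, tissue isoforms and duplicates, and the subunits at the extremes of EPKM, TPM and their differences. Any other subunit that passed the filter could be named. The lists set beside them were complex II, cytochrome c1 and cytochrome c, assembly factors, citric acid cycle enzymes, mitochondrial import, mitochondrially encoded subunits, and mitochondrial and cytosolic ribosomal proteins. Members and lists were chosen with earlier results of these data known. Transcript lengths, start codons and positions came from GENCODE 44, matched by gene identifier. Alternatives were another pseudocount, other filters, no centring, the mean, and the removal of ATP5IF1 and COX7A2L or of subunits with a listed processed pseudogene. Tables were handled with pandas 2.3.3 in Python 3.11.15. Medians and correlations were computed with NumPy 2.4.6 and with SciPy 1.17.1, and figures were drawn with matplotlib 3.10.9.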

Additional observations from a re-analysis of the deposited data

Results flagged for a closer look

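The 4 subunit genes outside the TPM filter entered no comparison at the TPM filter, and were included only in the shares of summed TPM and EPKM and where no filter was applied, yet 6 of their normalized EPKM values lay above the control, which was subtracted. ATP5MF-PTCD1, a readthrough of ATP5MF into PTCD1 without a TPM, had an EPKM of 0.00645 after PABPC IP and 0.0204 after PABPN IP. COX6B2, the testis isoform, had 0.00878 after PABPN IP. NDUFA4L2 had 0.00493 after PABPC IP. UQCRHL, the copy of UQCRH, had 0.00779 after PABPC IP and 0.0427 after PABPN IP. The other EPKM values of these genes were listed at 0.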

How the results depend on the processing

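No paired analysis was possible because each gene has 1 pooled value per fraction, and for the same reason neither a replicate block nor leaving out replicates in turn was run. For 10 results, 61 alternatives were run, of which 7, and the Input count itself, were chosen after seeing the data. Of these, 49 moved by less than the 95% interval of the median over subunits or stayed within 1.5 times the count, 11 moved further and 1 reversed. These intervals describe the spread over genes and no replicate error.

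With a pseudocount of 0.1, the subunits at least 2-fold higher after PABPC IP than after PABPN IP numbered 14 in place of 34, those at least 2-fold lower 3 in place of 11, and the median log2 EPKM difference of the PABPN IP from the Input was -0.76 in place of -1.42. When only subunits above 0 in both IPs were counted, an alternative added later, the numbers were 17 (33.3%) and 4 (7.84%) of 51, against 27.7% and 17.5% of 5914 PCGs. Subunits listed at 0 in an IP leave that count by construction.

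Without centring, the median log2 TPM ratio of the PABPN IP to the Input reversed from -0.77 to 0.33, that of the PABPC IP to the Input was 1.5 in place of 0.54, and that between the IPs 1.14 in place of 1.32, which the shift of PCGs accounts for. Without a TPM filter the ratio of the PABPC IP to the Input was 0.68 and that between the IPs 1.49. At a TPM of at least 20 the ratio between the IPs was 1.00 and that of the PABPN IP to the Input -0.62. For the filters and the pseudocount the cause was not tested.

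The number of subunits with their highest EPKM in Input RNA was 54 with no filter and 51 at a TPM of at least 20. It was 53 without ATP5IF1 and COX7A2L and 45 without subunits that have a listed processed pseudogene. The median EPKM per TPM ratio of the PABPC IP to the PABPN IP ranged from 0.596 to 0.705. With no counts in the files, the smallest EPKM that could be measured was not estimated.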

Other observations

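Processed pseudogenes of 9 subunits were listed beside them. COX6A1P2 had an EPKM of 0.553 in Input RNA and 0.571 after PABPN IP and was listed at 0 after PABPC IP, while COX6A1 itself had 0.385, 0.191 and 0.000319 in that order. UQCRFS1P1 had 0.0186 in Input RNA and 0.175 after PABPC IP and was listed at 0 after PABPN IP. COX5BP6 had 0.113 after PABPN IP, NDUFV2P1 had 0.0142 after PABPN IP, NDUFA3P4 had 0.0961 after PABPC IP and ATP5MC1P2 had 0.0877 in Input RNA, each listed at 0 elsewhere. COX6CP1, COX7CP1 and NDUFB4P12 were listed at 0 in each fraction.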
